A study of Homo sapiens with 6 samples.

Results

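The complement genes examined here were 9 of the 58825 genes of the deposited table, taken where the gene name equalled C3, CFB, C1R or C1S (components), CD46, CD55 or CD59 (regulators on the cell membrane), or CFI or SERPING1 (secreted regulators). They were measured by poly(A) RNA-seq in 3 Control and 3 OX-LDL libraries of HK-2 cells, a human proximal tubular epithelial line that was immortalised with papillomavirus genes. The Control cells were untreated, and the OX-LDL cells received oxidised low-density lipoprotein at 25 μg/ml for 48 h. The study's methods describe starvation in low serum before the OX-LDL was added, and the labels name no batch. The labels do not say whether the libraries of a group came from separate cultures, so p-values measure the spread between these libraries, which may be technical.

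Complement is a cascade of plasma proteins that marks surfaces for removal and can pierce membranes. The classical pathway starts when C1q binds a surface and activates the proteases C1r and C1s, the alternative pathway amplifies deposited C3b with factor B, and all pathways meet at the cleavage of C3. Host cells are protected by CD46, a cofactor for the cleavage of C3b by factor I, by CD55, which breaks up the C3 convertases, and by CD59, which blocks the membrane attack complex. Factor I is encoded by CFI, and SERPING1 encodes the C1 inhibitor that inactivates C1r and C1s. Tubular epithelium is a known local source of complement proteins in the kidney.

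OX-LDL cells held more mRNA of C1R, C1S and CFB than Control cells, while no regulator among the 9 genes passed the test in either direction. This contrast did not hold for all complement genes. Outside the 9, CLU, an inhibitor of the terminal complex, was higher (log2 fold change 0.56) and C5 was lower (-1.20), and both passed. C1R was 2.57-fold higher (95% interval 1.80 to 3.65), C1S 2.22-fold higher (1.65 to 2.98) and CFB 1.61-fold higher (1.25 to 2.08). The fourth component, C3, was at 1.47-fold with an interval from 0.964 to 2.24 and did not pass. With 1 library left out, C1R and C1S were called in 6 of 6 fits, but CFB in 1, CLU in 3 and C5 in 2. The interval of the regulator CD59, 0.771-fold to 1.70-fold, included the 1.61-fold of CFB. SERPING1 had 0 counts in each of the 6 libraries. In these bulk libraries, more cells that make a transcript and more transcript in each cell cannot be told apart.

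Of the 9 genes, 8 reached the minimum for testing, a mean of 0.1 FPKM (fragments scaled to transcript length and library size, as deposited). By the quasi-likelihood test of edgeR, with p-values adjusted over all genes and called under 0.05, 3 of these 8 passed, all of them higher in OX-LDL, where 15.3% of all 19510 genes tested were called and 7.91% were called higher. Only C1R and C1S among them also had a fold change above 2, a limit that 3.91% of all genes passed together with the adjusted p-value. In 3 of the 8, the OX-LDL libraries lay above every Control library in FPKM, as they did for 16.8% of all genes tested. The median log2 fold change was 0.92 over the 4 components, 0.20 over the 3 membrane regulators and -0.004 over all genes tested.

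Over all genes, OX-LDL replicate 2 lay further from its group than the other OX-LDL libraries did. Its counts differed from theirs by a chi-square per gene of 24.8 and 24.1, against 14.3 between replicates 1 and 3, and between 21.2 and 22 among the Control libraries. On the first principal component it scored 37.53, against 55.67 and 55.64 in the other OX-LDL libraries and -59.42 to -44.24 in Control. Without it, 2943 genes were called, against 1262 without OX-LDL replicate 1 and 1163 without OX-LDL replicate 3. The log2 fold changes without it were 1.52 for C1R (adjusted p = 0.00853), 1.26 for C1S (0.0116), 0.63 for CFB (0.0671) and 0.22 for C3 (0.406, all from edgeR). The same fit gave log2 fold changes of 0.20 for CD46, 0.08 for CD55, 0.08 for CD59 and -0.07 for CFI, none of them called.

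C1R (ENSG00000159403; GRCh38 chromosome 12, 7080209 to 7092607, minus strand) encodes the protease that activates itself and then C1s inside the C1 complex. It had 1.10, 0.810 and 0.829 FPKM in Control replicates 1 to 3 and 2.66, 1.76 and 2.51 FPKM in OX-LDL replicates 1 to 3. The groups did not overlap, and OX-LDL replicate 2 was the lowest of the treated libraries. The log2 fold change was 1.36 (standard error, SE, 0.21, edgeR adjusted p = 0.0103). It stayed between 1.26 and 1.53 with 1 library left out, and the adjusted p-value stayed at or under 0.0461. With limma on log2(FPKM + 1), a scale on which low genes move less, it was 0.78 (adjusted p = 0.0156). C1R shares part of its range with C1RL on the same strand, a related gene whose log2 fold change was -0.20 (adjusted p = 0.367 in edgeR), and reads of the shared stretch could have gone to either gene.

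C1S (ENSG00000182326; chromosome 12, 6988259 to 7071032, plus strand) encodes the protease that cleaves C4 and C2. Its levels were 2.46, 2.36 and 3.43 FPKM in Control and 6.47, 5.00 and 6.46 FPKM in OX-LDL. Again the groups were apart and OX-LDL replicate 2 was the lowest treated library. The log2 fold change was 1.15 (SE 0.18, edgeR adjusted p = 0.01), and between 1.04 and 1.34 with 1 library left out, with adjusted p-values up to 0.0422. LPCAT3, which overlaps C1S on the other strand, had a log2 fold change of -0.08 (adjusted p = 0.643 in edgeR). The products of C1S and C1R work as a tetramer of equal parts, and the FPKM ratio of C1S over C1R was 2.23, 2.91 and 4.13 in Control and 2.43, 2.85 and 2.57 in OX-LDL. These ratios overlapped between the groups.

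CFB (ENSG00000243649; chromosome 6, 31945650 to 31952084, plus strand) encodes factor B, which supplies the catalytic part of the alternative C3 convertase. It had 2.15, 2.62 and 3.16 FPKM in Control and 3.95, 4.53 and 4.04 FPKM in OX-LDL, with no overlap between the groups. The log2 fold change was 0.69 (SE 0.16, edgeR adjusted p = 0.0299). The call, unlike those of C1R and C1S, depended on single libraries. It was lost without any 1 of Control replicates 1 and 2 and the 3 OX-LDL libraries, with adjusted p-values of 0.0671 to 0.1 and log2 fold changes of 0.57 to 0.73, and it remained without Control replicate 3 (0.84, adjusted p = 0.0243). The neighbouring C2 had at most 36 counts in any library, and a read-through gene over C2 and CFB (ENSG00000244255) had 31 counts in Control replicate 3, 17 in OX-LDL replicate 1 and 0 in the other libraries, against 949 to 2061 for CFB.

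C3 (ENSG00000125730; chromosome 19, 6677704 to 6730562, minus strand) encodes the central protein of the cascade and had the highest level of the 4 components. It measured 8.08, 8.20 and 11.2 FPKM in Control and 10.5, 18.5 and 10.4 FPKM in OX-LDL. The groups overlapped, and the OX-LDL mean rested on replicate 2. The log2 fold change was 0.55 (SE 0.26, edgeR adjusted p = 0.2) and was 0.22 (adjusted p = 0.406) without OX-LDL replicate 2. GPR108, which overlaps C3 on the same strand, fell by 0.71 on the log2 scale (edgeR adjusted p = 0.0185). OX-LDL replicate 2 was the highest treated library for C3, CFB, CFI and CD59 and the lowest for C1R, C1S and CD55.

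**Figure D1:**
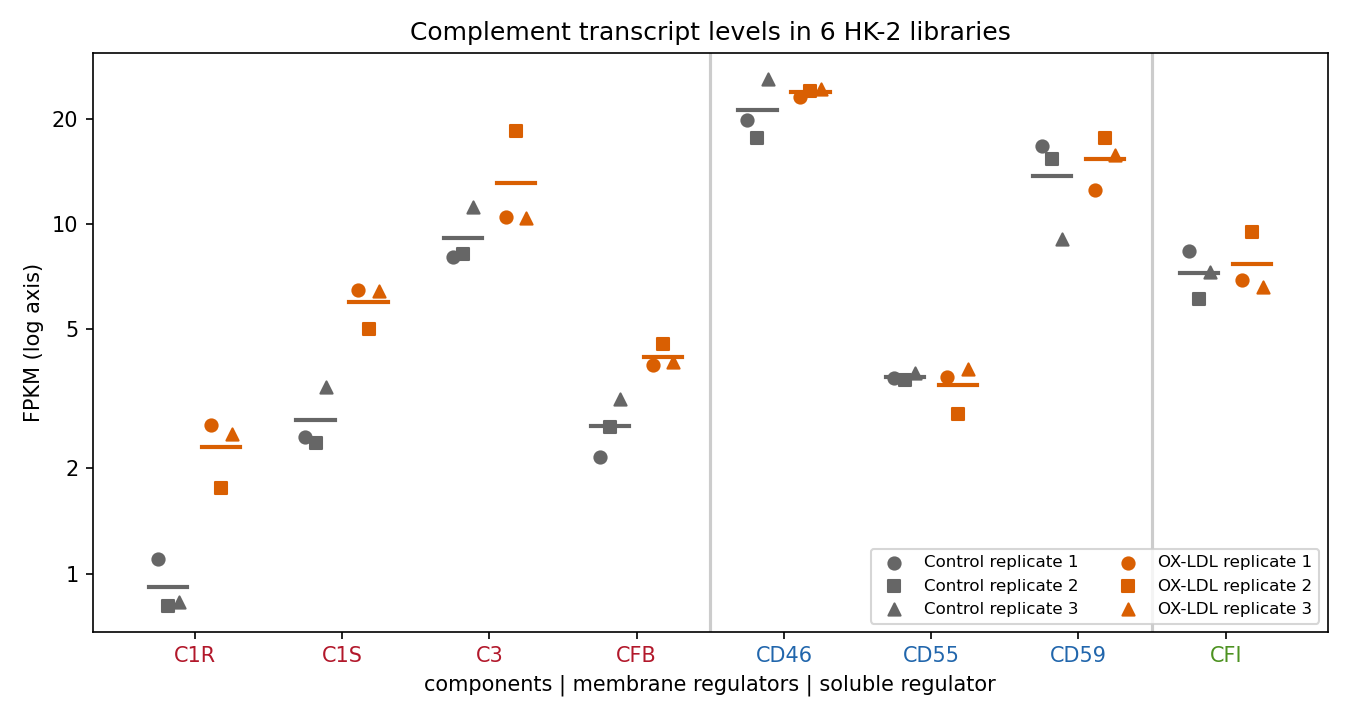
Deposited FPKM (log axis) of the 8 detected complement genes in each library, with gray symbols for Control, orange symbols for OX-LDL, a symbol shape for each replicate number and bars for group means. The orange symbols lie above all gray ones for C1R, C1S and CFB, and they overlap the gray ones for C3, CD46, CD55, CD59 and CFI.

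Start regions were read for letter motifs of factors with known sites in complement genes. RefSeq windows on GRCh38.p14 of 250 bases before a transcript start were at hand for 6 of the 9 genes, namely CFB, C1R, CFI, CD46, CD55 and CD59, with more than 1 start for C1R, CD46 and CD59. Both strands were searched for the STAT site called GAS (TTCNNNGAA), the interferon response element in a relaxed form, the NF-κB consensus, a C/EBP-like motif (TTNNGCAA), the TATA box (TATAAA), the CCAAT box and the GC box (GGGCGG). A match describes letters only and is neither a binding site nor a cause. Among the 11 windows, an interferon-type, an NF-κB or a TATA match occurred only in that of CFB, which also held a GAS match. Of all 35116 RefSeq windows, 6.57% held a GAS match, 3.02% the interferon-type motif, 9.96% the NF-κB consensus, 9.05% the C/EBP-like motif, 10.7% a TATA box, 32.0% a CCAAT box and 42.6% a GC box. The stretches of CFB are shown because CFB was the called component with the most kinds of match. They run towards the start with the matched letters in capitals, and the matches do not overlap one another. Some annotated CFB and C1R transcripts begin further upstream than these starts.
CFB interferon-type motif, chr6:31945945-31945974, plus strand: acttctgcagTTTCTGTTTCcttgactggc
CFB NF-κB consensus, chr6:31945973-31946002, plus strand: gcagctcagcGGGGCCCTCCcgcttggatg
CFB GAS, chr6:31945993-31946021, plus strand: cgcttggatgTTCCGGGAAagtgatgtgg
CFB TATA box, chr6:31946055-31946080, plus strand: acacagattgTATAAAaggctggggg

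C1R had neither an interferon-type nor an NF-κB match before its starts. It held a C/EBP-like match before both starts and a GAS match before the inner one, shown here because C1R changed most. CD46 is shown as a regulator that did not pass the test. Its 60 bases before the outer start held 2 GC boxes and a CCAAT box but none of the GAS, interferon-type, NF-κB or C/EBP-like motifs. CD59, a further regulator that did not pass the test, held a GAS match at its outer starts and C/EBP-like matches at an inner one. Whether any match bears on the mRNA changes was not tested. CD55 held a GC box and CFI a CCAAT box as their only matches.
C1R C/EBP-like motif, outer start, chr12:7092534-7092561, minus strand: gatcttttgtTTATGCAAatagttcatt
C1R GAS, inner start, chr12:7091961-7091989, minus strand: gccagtcctaTTCCTGGAAggggagggga
CD59 GAS, chr11:33736589-33736617, minus strand: ccacccggccTTCTCAGAAcctgggccag
CD46 GC boxes and CCAAT box, chr1:207751978-207752037, plus strand: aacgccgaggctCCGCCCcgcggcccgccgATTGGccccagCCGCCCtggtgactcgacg

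The factors that read such sites were themselves divided. In a list of 16 transcription factors with roles at complement genes, 14 could be tested, 3 were called higher and 4 lower, beside 15.3% called of all genes, and the median log2 fold change was -0.06. STAT3, which carries interleukin-6 signals, stood at 9.68, 9.19 and 8.76 FPKM in Control and 12.9, 11.8 and 12.3 FPKM in OX-LDL. It rose by 0.45 on the log2 scale (adjusted p = 0.0114) and the NF-κB subunit RELA by 0.86 (adjusted p = 0.0371 in edgeR). CEBPB, a factor of the acute phase response, had a log2 fold change of -1.17 (adjusted p = 0.0114), IRF1, an interferon-induced activator, -0.84 (0.0205), the GC box factor SP1 -0.49 (0.0291) and NFKB1 -0.30 (0.0366), all adjusted p-values from edgeR. The calls of STAT3 and CEBPB remained with each library left out in turn. Leaving out OX-LDL replicate 1, OX-LDL replicate 3, Control replicate 2 or Control replicate 1 ended the call of RELA (adjusted p-values 0.097 to 0.124), and the first 3 of these ended that of IRF1 (0.0591 to 0.0795). The call of SP1 remained only when OX-LDL replicate 2 was left out (0.00902, otherwise 0.0678 to 0.102), and that of NFKB1 in none of the 6 fits (0.0609 to 0.119). Whether any of these factors acted on the complement genes was not tested.

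None of the 3 membrane regulators passed the test, and CD46 and CD59 were the most abundant of the 9 transcripts in FPKM. CD46 (ENSG00000117335; chromosome 1, 207752057 to 207795513) had 19.9, 17.7 and 26.0 FPKM in Control and 23.1, 24.1 and 24.4 FPKM in OX-LDL. The OX-LDL libraries lay within the range of the Control libraries, and the log2 fold change was 0.20 (SE 0.14, edgeR adjusted p = 0.395). Its interval allowed from 0.911-fold to 1.45-fold.

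CD55 (ENSG00000196352; chromosome 1, 207321376 to 207386804) had the smallest spread relative to its mean of the 8 detected genes in Control, with 3.62, 3.58 and 3.74 FPKM, and had 3.66, 2.86 and 3.86 FPKM in OX-LDL. The groups overlapped, and the log2 fold change of -0.04 (SE 0.13, edgeR adjusted p = 0.859) had an interval from 0.782-fold to 1.20-fold, so a doubling like those of C1R and C1S lay outside it. CD59 (ENSG00000085063; chromosome 11, 33703010 to 33736491) had 16.7, 15.4 and 9.08 FPKM in Control and 12.5, 17.7 and 15.8 FPKM in OX-LDL. Control replicate 3 had the lowest CD59 and the highest CD46 of the 6 libraries, and without it the log2 fold change of CD59 went from 0.20 (SE 0.24, edgeR adjusted p = 0.642) to -0.03. The interval of CD59, 0.771-fold to 1.70-fold, was the widest of the membrane regulators. AL049629 (ENSG00000284969), which overlaps CD59 on its strand, had 118 counts in Control replicate 3 and at most 9 elsewhere, against 7813 counts of CD59 in that library.

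The secreted regulators were not alike. CFI (ENSG00000205403; chromosome 4, 109740694 to 109802179) had 8.37, 6.10 and 7.30 FPKM in Control and 6.92, 9.50 and 6.62 FPKM in OX-LDL, with overlapping groups. Its log2 fold change was 0.11 (SE 0.18, edgeR adjusted p = 0.733), its interval ran from 0.801-fold to 1.46-fold, and it was -0.07 without OX-LDL replicate 2 and -0.01 without Control replicate 2. The overlapping gene AC126283 (ENSG00000285330) had 183 and 199 counts in Control replicates 1 and 2 and 0 in the other libraries, against 2493 to 4208 counts of CFI, and reads of the shared stretch could have gone to either. SERPING1 (ENSG00000149131; chromosome 11, 57597387 to 57614853) could not be tested. A count of 0 allows up to 3 read pairs, which is 12 deposited counts or 0.156 to 0.192 CPM (counts scaled to library size) in these libraries, a limit that covers counting error only.

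**Figure D2:**
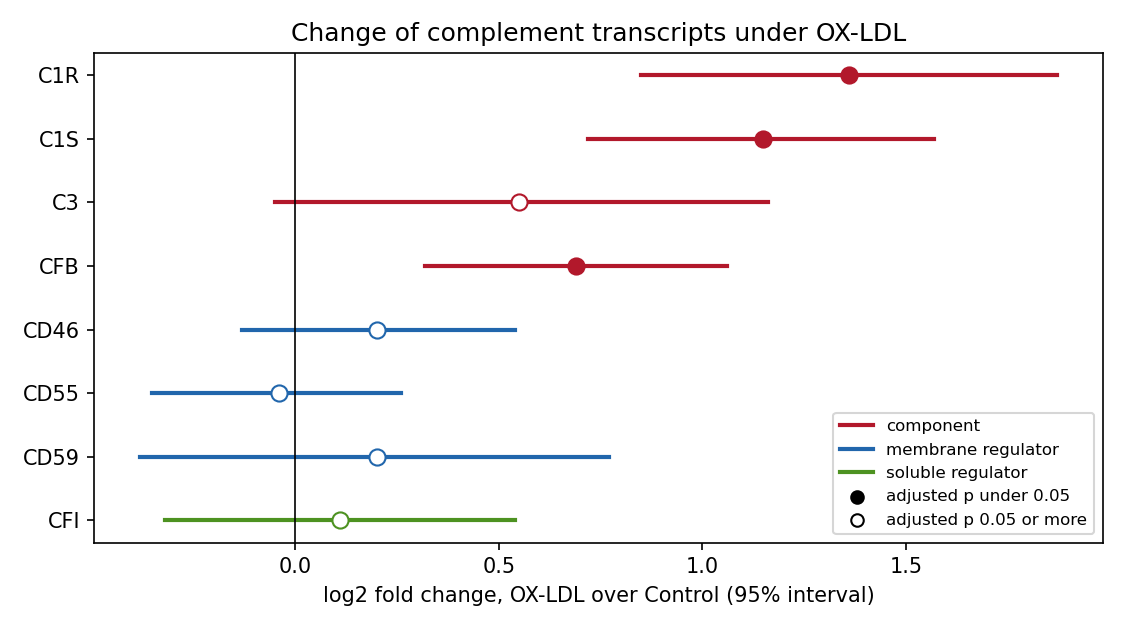
Log2 fold change of each testable complement gene (OX-LDL over Control, points) with its 95% interval (lines) from edgeR, colored by role, with filled points for an adjusted p-value under 0.05. C1R, C1S and CFB are filled and lie to the right of 0, while the intervals of C3 and of all 4 regulators shown include 0.

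In FPKM, which compares genes per length, the order of the group means in Control was CD46, CD59, C3, CFI, CD55, C1S, CFB and C1R. The ranges of CD59 and C3, of C3 and CFI, and of C1S and CFB overlapped, and the other neighbours were apart. In OX-LDL, C1S and CFB had moved above CD55, and among neighbours only CD59 and C3 overlapped. The ratio of CFB over CD55 was 0.594, 0.731 and 0.846 in Control and 1.08, 1.58 and 1.05 in OX-LDL. The ratio of C1S over CD46 was 0.123, 0.133 and 0.132 in Control and 0.280, 0.208 and 0.265 in OX-LDL. That of C3 over CD46 overlapped between the groups, with 0.406, 0.463 and 0.431 in Control and 0.454, 0.77 and 0.426 in OX-LDL. Summed over members, components reached 13.8, 14.0 and 18.6 FPKM in Control and 23.6, 29.8 and 23.4 FPKM in OX-LDL. The summed membrane regulators reached 40.2, 36.6 and 38.8 FPKM in Control and 39.3, 44.7 and 44.1 FPKM in OX-LDL. The ratio of the first sum to the second was 0.343, 0.382 and 0.480 in Control and 0.600, 0.668 and 0.531 in OX-LDL. These sums and ratios describe the chosen genes and were not tested.

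**Figure D3:**
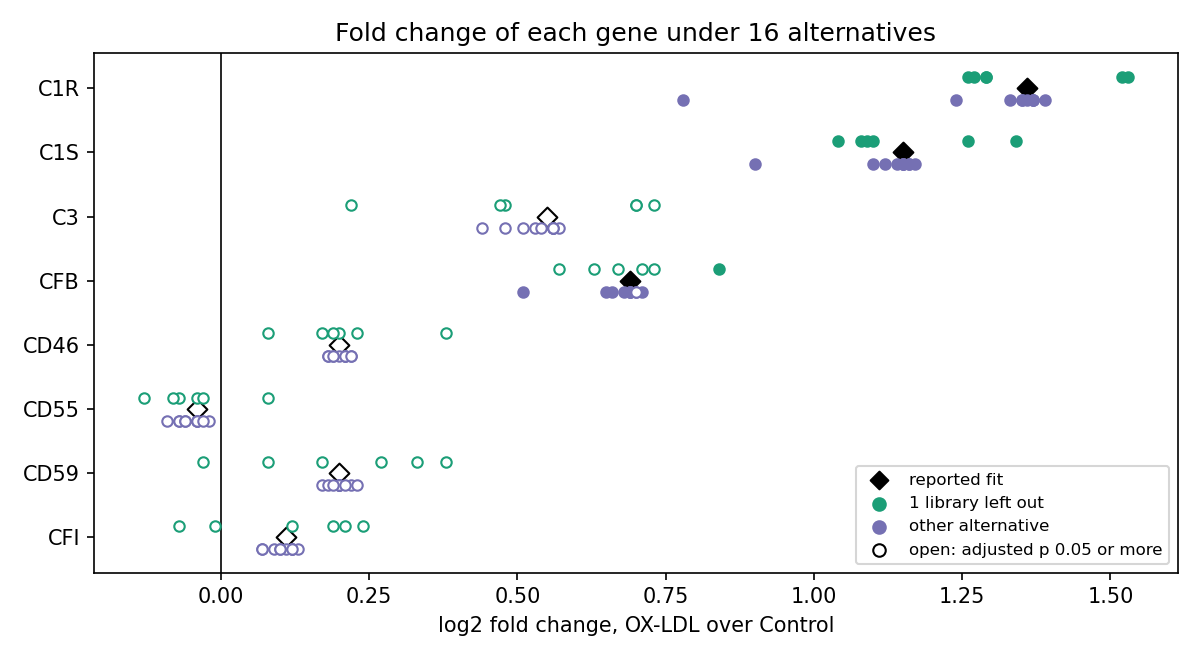
Log2 fold change of each testable complement gene in the reported fit (black diamonds), with 1 library left out (green) and under 10 other alternatives (purple), open where the adjusted p-value was 0.05 or more. C1R and C1S stay filled throughout, CFB is open in 5 of 6 fits with 1 library left out, and C3 reaches down to 0.22.

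Most of the rest of the pathway was at or near 0 in these libraries. In a list of 51 other complement genes, 30 had at most 12 counts in every library and 13 could be tested. Of these 13, 2 were called higher and 2 lower, beside 15.3% called of all genes, and 0.48 was the median log2 fold change. The C1q genes C1QA and C1QB had 0 counts in all 6 libraries and C1QC at most 4. Of the genes of the membrane attack complex, C6, C7, C8A, C8B and C9 had 0 counts in all 6 as well. C8G had 23 counts in Control replicate 1 and 0 in the other libraries. C1R and C1S mRNA was thus measured in libraries with at most 4 deposited counts of any C1q gene and with 0 of SERPING1.

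C5, whose cleavage starts the terminal pathway, had 4.91, 5.88 and 6.82 FPKM in Control and 1.86, 3.46 and 2.16 FPKM in OX-LDL. Every OX-LDL library lay below every Control library, and the log2 fold change was -1.20 (SE 0.25, edgeR adjusted p = 0.0231). The direction was thus opposite to that of C1R and C1S. The call was lost when OX-LDL replicate 1, OX-LDL replicate 3, Control replicate 2 or Control replicate 3 was left out, with adjusted p-values of 0.0647 to 0.0859.

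CLU, which encodes clusterin, an inhibitor of the terminal complex and a marker of tubular stress, had 4.02, 3.85 and 3.51 FPKM in Control and 5.60, 4.95 and 5.90 FPKM in OX-LDL (log2 fold change 0.56, adjusted p = 0.0159 from edgeR). ITGB2, the shared chain of the C3 fragment receptors, had a log2 fold change of 0.60 (adjusted p = 0.0458) at 0.812 to 1.39 FPKM, and C1QBP, a mostly mitochondrial protein that binds C1q, had -0.43 (adjusted p = 0.0209 in edgeR). When OX-LDL replicate 1, OX-LDL replicate 3 or Control replicate 2 was left out, the calls of CLU (adjusted p-values 0.0572 to 0.0612) and C1QBP (0.072 to 0.0872) were lost, and that of ITGB2 was lost when any of the 6 libraries was (0.0516 to 0.14).

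C3AR1, the receptor of the C3a fragment, was low in both groups, with 0.247, 0.336 and 0.600 FPKM in Control and 0.983, 0.775 and 0.978 FPKM in OX-LDL. Its groups did not overlap, but its log2 fold change of 1.23 (SE 0.36) had an adjusted p-value of 0.0666 in edgeR, and of 0.0113 in DESeq2. C4A (log2 fold change 0.67, adjusted p = 0.134) and C4B (0.60, 0.211, both from edgeR) are nearly identical copies of the C4 gene, whose protein C1s cleaves, and reads could have been divided between them.

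**Figure D4:**
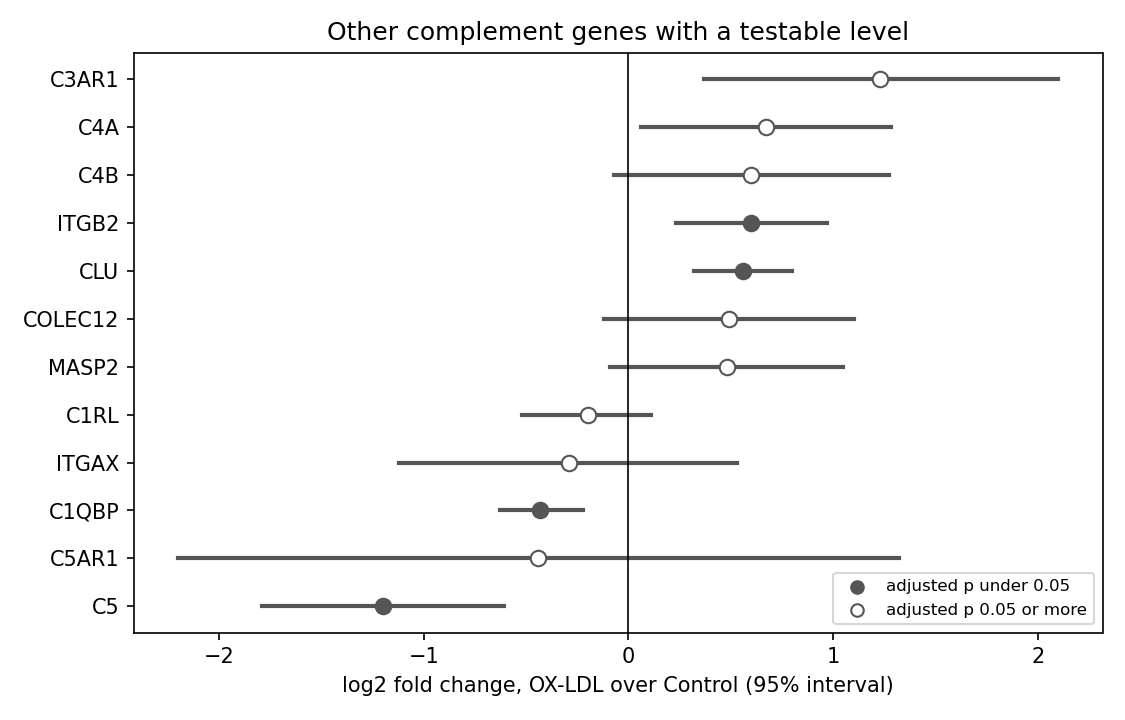
Log2 fold change (OX-LDL over Control, points) with 95% intervals (lines) from edgeR for 12 of the 13 other complement genes that could be tested, filled where the adjusted p-value was under 0.05. Of the filled points, CLU and ITGB2 lie above 0, C5 and C1QBP lie below 0, and C5 has the largest fall. Among the open points, C3AR1 is the highest of all at 1.23, and the intervals of C3AR1 and C4A also lie above 0.

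Markers were read to check the cells behind these values. The epithelial genes KRT8, KRT18 and EPCAM were at 30.9 FPKM or more in all 6 libraries, and the renal factor PAX8 at 16.3 FPKM or more, but 7 of 11 proximal tubule markers were too low to test, with LRP2 and SLC22A6 at 0 counts throughout. Between the groups, KRT8 (0.83 on the log2 scale, adjusted p = 0.0116) and KRT19 (1.94, 0.00207) were higher in OX-LDL and PAX8 was lower (-1.23, 0.0182, all in edgeR), and their part in the complement results was not tested. CDH1 was at most 0.144 FPKM. Of 8 macrophage markers, 2 could be tested, CD68 and CD14, and neither passed. CD68 had a log2 fold change of 1.08 (adjusted p = 0.0858 in edgeR), and every OX-LDL library lay above every Control library in FPKM. CD14 had -0.02 (adjusted p = 0.98 in edgeR), with overlapping groups. The list summed to 3.17 to 7.82 FPKM in Control and 9.21 to 14.2 FPKM in OX-LDL, nearly all of it CD68, a lysosomal gene that epithelium also expresses, while CD163 was at 0 counts and PTPRC, LYZ and MRC1 were at or under 12 counts in every library. CSF1R, the receptor of a macrophage growth factor, was too low to test, with 9, 12 and 4 counts in Control and 65, 16 and 94 in OX-LDL, groups that did not overlap, and ITGAM had 8, 0 and 23 counts in Control and 33, 6 and 14 in OX-LDL. The part of such cells in the complement results was not tested. None of 4 endothelial markers and 2 of 7 fibroblast markers could be tested, and none was called. These 2 were LUM, at 8.06 to 13.1 FPKM over the 6 libraries, and COL1A1, at 0.467 to 0.932 FPKM. The other 5 fibroblast markers were too low to test. Total counts were 62561347 to 76797607 per library, of which about 4 were taken to stand for 1 read pair.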

How the data were processed

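Poly(A) RNA of 6 HK-2 samples was sequenced as read pairs. The submitters' processing notes name GRCh38, cutadapt 1.9, HISAT2 2.0.4, StringTie 1.3.4d, edgeR and DESeq2 without their roles. The authors deposited 1 table with whole-number estimated counts per gene, not scaled for library size, and FPKM, which the authors scaled for transcript length and library size and which list a count of 0 as 0.0001. Genes with exactly 4 counts were 3.26 times as frequent as those with 3 or 5, so 1 read pair was taken as about 4 deposited counts. No column was left unmapped. The strand setting of the counting is not given in the sources used here.

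Counts were fitted with edgeR 4.0.16 (R 4.3.3; TMM, glmQLFit, glmQLFTest, a term for group) on 19510 genes whose mean FPKM reached 0.1. P-values were adjusted by Benjamini-Hochberg over all of them. Standard errors are the log2 fold change over the square root of F. Intervals are at 95%, and a ± is the SD over 3 libraries. No library was a copy of another (chi-square per gene 14.3 to 24.8 within groups). The fits were tested on simulated data. DESeq2 1.42.0, limma 3.58.1 on log2(FPKM + 0.1) and log2(FPKM + 1), other scaling factors, counts divided by 4, other minimum levels, a replicate block and leaving out each library were the alternatives.

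The 9 genes and all gene lists were chosen with earlier results of these data known. Named in the text are all 9 genes, the called genes of the lists, at most 8 per list, and some of the genes that overlap a member. For C1R, the 3 genes most like it are also named. C3AR1, C4A, C4B, PIGA, the marker genes, the C1q and the terminal pathway genes were chosen after their values were seen. A few listed genes that were counted are not reported here by name. Promoter windows are RefSeq's, on GRCh38.p14.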

Additional observations from a re-analysis of the deposited data

How the results depend on the processing

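The number of complement genes called, 3 of 8 tested, was the same under all scaling, filter and tool alternatives and 2 with the replicate block. Leaving out 1 library gave 2, or 3 without Control replicate 3. C1R and C1S were called under all 16 alternatives, and CFB under 10. Of 128 refitted fold changes of the 8 genes, 122 kept their side of the threshold and 6, all of CFB, lost it. No called gene changed sign, and 4 values of CFI, CD55 and CD59, which were not called, did. The replicate block gave CFB an adjusted p-value of 0.0552. Deviations of same-numbered libraries correlated at -0.041, -0.00313 and 0.0356, and those of differently numbered libraries at -0.0542 to 0.0565. No pairing by replicate number was thus seen, but such values cannot exclude a paired design. With the replicate block, all genes called fell from 2991 to 1636, the other complement genes called from 4 to 2 and the transcription factors called from 7 to 3. The GPI anchor genes called were 1 instead of 3 with no minimum level. Leaving out 1 library gave 1161 to 2943 genes called in all, 0 to 3 other complement genes, 3 to 6 transcription factors and 0 to 3 GPI anchor genes, the lowest of all genes without Control replicate 2. The cause was not tested, beyond the fewer samples in each fit. DESeq2 called 4323 genes. For SERPING1, with 0 counts in every library, no difference was detectable at this depth.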

Other observations

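CD55 and CD59 are held at the cell surface by a glycosylphosphatidylinositol (GPI) anchor, so the genes that build the anchor were read as a list. All 28 could be tested, 1 was called higher and 2 lower, beside 15.3% called of all genes, and the median log2 fold change was -0.12, beside -0.004 over all genes. PIGH, a subunit of the enzyme of the first step, had 2.54, 2.90 and 2.05 FPKM in Control and 1.36, 1.36 and 1.40 FPKM in OX-LDL. It fell in every treated library relative to every Control library, with -0.82 on the log2 scale (edgeR adjusted p = 0.0226). DPM2, a subunit of the enzyme that makes the mannose donor, had -0.58 (adjusted p = 0.0459) and PIGG, which adds a side group to the anchor, 0.29 (adjusted p = 0.0311, both from edgeR). PIGA, the catalytic subunit of the first step, had -0.09 (adjusted p = 0.581 in edgeR). With 1 library left out, PIGG was called in 0 of 6 fits, DPM2 in 1, without OX-LDL replicate 2, and PIGH in 2, without Control replicate 3 or OX-LDL replicate 2.

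Across the 6 libraries, the genes whose log2(CPM + 1) followed C1R most closely among 12258 others with a mean of at least 1 FPKM were UGP2 (Pearson r = 0.999), PHF19 (0.998) and LTV1 (0.998). UGP2, which makes UDP-glucose, went from 19.8 ± 0.906 to 27.8 ± 2.70 FPKM (mean ± SD over 3 Control and 3 OX-LDL libraries). PHF19 differed little between the groups, with 12.6 ± 0.0945 and 13.4 ± 0.297 FPKM, and was not called (adjusted p = 0.248 in edgeR's fit across all genes). These values are a description, since the genes were picked for their likeness over libraries that share 2 conditions.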
